A study of Mus musculus with 7 samples.

Results

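The aryl hydrocarbon receptor (AHR) set comprised 8 genes of the 26607 listed in the deposited tables. They were chosen by symbol: the receptor Ahr, its partner Arnt, the repressor Ahrr, and the target genes Cyp1a1, Cyp1b1, Tiparp, Aldh3a1 and Nqo1. All 8 symbols were found, and all 8 were among the 19144 genes with reads in at least 1 library. The set was chosen after the comparison of these same libraries was known. The difference between the groups is therefore given for the members as a description, without a test.

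C2C12 cells are mouse myoblasts that fuse in low serum into multinucleated myotubes. The control group was 3 libraries of untreated C2C12 myotubes, with replicate numbers 1, 3 and 4. The EPS group was 4 libraries of C2C12 myotubes given electrical pulse stimulation (EPS), with replicate numbers 1 to 4. EPS makes cultured myotubes contract. Pulses were given from day 3 of differentiation over 24 h, and 1 h of rest came before the RNA was taken. Nothing in the labels says that the libraries came from separate cultures, so the spread between them may be technical. The line is 1 cell line in culture, without nerve, vessels or other organs. Values are in CPM, the reads of a gene scaled to the total of its library.

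AHR is a ligand-activated transcription factor of the basic helix-loop-helix PAS family. Without ligand it is held in the cytosol by HSP90 and p23, and with ligand it enters the nucleus, pairs with ARNT and binds DNA at the core sequence GCGTG. Its best-known targets are the cytochrome P450 genes Cyp1a1 and Cyp1b1. AHRR, which competes with AHR for ARNT, and TIPARP, an ADP-ribosyltransferase that lowers AHR activity, are targets that feed back on the receptor. Nqo1 and Aldh3a1 belong to the same classical battery, and both genes, Nqo1 above all, are also induced through the oxidative stress factor NRF2, which acts at antioxidant response elements with the core TGACNNNGC.

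The windows of 250 bases before the transcription start were read from RefSeq (GRCm38.p6) for Cyp1a1, Cyp1b1, Ahrr, Tiparp and Nqo1, the target genes with a matched window. RefSeq windows were matched by symbol for 6 of the 8 members, and Ahr and Aldh3a1 were not matched. The windows are shown so that the element of the receptor can be compared between these genes. The sequences are written 5′ to 3′ on the strand of the gene, and capitals mark GCGTG or its reverse complement CACGC:
Cyp1a1, chr9:57697363-57697612, forward strand: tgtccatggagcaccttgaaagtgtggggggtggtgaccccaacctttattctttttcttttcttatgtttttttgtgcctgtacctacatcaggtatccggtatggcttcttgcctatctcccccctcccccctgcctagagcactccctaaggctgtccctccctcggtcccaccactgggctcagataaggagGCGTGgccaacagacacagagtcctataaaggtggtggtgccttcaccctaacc
Cyp1b1, chr17:79715062-79715311, reverse strand: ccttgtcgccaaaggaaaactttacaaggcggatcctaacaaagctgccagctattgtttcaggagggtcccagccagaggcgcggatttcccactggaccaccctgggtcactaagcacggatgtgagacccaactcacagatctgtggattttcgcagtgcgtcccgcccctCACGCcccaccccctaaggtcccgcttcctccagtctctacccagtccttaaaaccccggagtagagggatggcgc
Ahrr, chr13:74292332-74292581, reverse strand: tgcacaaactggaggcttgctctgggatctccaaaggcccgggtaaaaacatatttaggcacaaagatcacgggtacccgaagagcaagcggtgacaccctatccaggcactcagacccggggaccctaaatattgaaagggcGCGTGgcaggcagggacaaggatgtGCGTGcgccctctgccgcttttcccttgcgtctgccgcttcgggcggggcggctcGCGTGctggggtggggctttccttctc
Tiparp, chr3:65528197-65528446, forward strand: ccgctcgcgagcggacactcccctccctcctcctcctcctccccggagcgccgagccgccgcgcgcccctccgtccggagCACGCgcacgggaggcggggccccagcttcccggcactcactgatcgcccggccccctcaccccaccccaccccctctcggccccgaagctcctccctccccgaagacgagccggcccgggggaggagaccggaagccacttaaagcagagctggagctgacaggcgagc
Nqo1, chr8:107403206-107403455, reverse strand: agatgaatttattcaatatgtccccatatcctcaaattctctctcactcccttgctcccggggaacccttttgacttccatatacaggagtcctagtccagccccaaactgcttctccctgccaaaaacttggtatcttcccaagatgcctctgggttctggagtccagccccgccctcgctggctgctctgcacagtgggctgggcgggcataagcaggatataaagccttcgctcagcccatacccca

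Searched on both strands, the window of Ahrr held GCGTG 3 times, those of Cyp1a1, Cyp1b1, Tiparp and Arnt held it 1 time each, and that of Nqo1 did not hold it. The match of Cyp1a1 began 54 bases before the start. Of all 32851 RefSeq windows of this length, 28.2% held at least 1 GCGTG, so a match is common. The longer form TNGCGTG, which overlaps GCGTG, was found in 4.10% of all windows and, among the members, in that of Ahrr, 29 bases before the start. TGACNNNGC was found 2 times in the window of Arnt and in none of the 5 windows printed, against 10.2% of all windows. A match is a description of the letters in this window and not evidence of binding. The lack of a match does not show that a gene lacks the element, as sequence outside the window was not searched.

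Total reads per library were between 16616917 and 22120641. Control replicate 4 had the highest total but stood apart, as only 359 genes had 1 to 5 reads in it, where each other library had 2670 to 3181 such genes, so its low values are less certain. The 10 myotube markers were detected in every library, with summed levels of 18551 to 20347 CPM in the control and 13848 to 20402 CPM in the EPS group. None of the 10 passed both thresholds, but 9 were lower on average in the EPS group (median log2 fold change -0.37), with Actn2, whose groups did not overlap, at -0.99. Myog overlapped between the groups, at 473, 565 and 1794 CPM in control replicates 1, 3 and 4 and 278 to 605 CPM in the EPS group, so that its highest value was in the control library that stood apart. Of the 5 fibroblast markers, which summed to 516 to 950 CPM in the control and 403 to 974 CPM in the EPS group, none passed, and Pdgfra (0.70) and Dpt (-0.47) did not overlap between the groups. Of the 16 markers of epithelial, blood and endothelial cells, 5 had no reads in any library, among them Alb, Epcam and Cd3e. None of those with reads passed, and only the blood cell marker Csf1r did not overlap between the groups. Csf1r was at 0 to 0.181 CPM in the control and 0.228 to 0.690 CPM in the EPS group (log2 fold change 0.34). Cd68, another blood cell marker, was at 0.41 on the log2 scale. The highest sum of any of these 3 marker lists in a library was 3.71 CPM. The 5 markers of undifferentiated or cycling myoblasts summed to 198 to 295 CPM in the control and 282 to 836 CPM in the EPS group. Of these, 4 were higher on average in the EPS group (median log2 fold change 0.86), with Ccnb1 at 1.38 and Mki67 at 1.27. The groups overlapped in all 5, and none of the 5 passed both thresholds. The part of any of these marker lists in the results on the members was not tested.

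The receptor and its partner were detected in every library. Ahr (ENSMUSG00000019256.17, chromosome 12 of GRCm38 from 35497974 to 35535038) was at 66.9, 87.9 and 62.9 CPM in control replicates 1, 3 and 4. It was at 115, 114, 88.6 and 100.2 CPM in EPS replicates 1 to 4. The groups did not overlap, but EPS replicate 3 exceeded control replicate 3 by less than 1 CPM. The log2 fold change of Ahr was 0.53 (standard error 0.17), which is under 2-fold. Arnt (ENSMUSG00000015522.18, chromosome 3 from 95434388 to 95497240) was at 98.2, 73.8 and 80.3 CPM in the control and at 90.0, 78.4, 99.9 and 87.0 CPM in the EPS libraries. The groups overlapped, and the log2 fold change of 0.08 (standard error 0.15) was within the spread between replicates. Its sign turned with median-of-ratios scaling and in DESeq2, both at -0.03, in edgeR, at -0.02, and without control replicate 3, at -0.0045.

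The P450 genes, which encode enzymes that oxidize polycyclic aromatic compounds, were higher in the EPS group, and EPS replicate 1 lay far below the other EPS libraries. Cyp1a1 (ENSMUSG00000032315.6, chromosome 9 from 57687928 to 57703824) had 0 reads in all 3 control libraries. It had 1 read in EPS replicate 1, and 1686, 1532 and 2630 reads in EPS replicates 2, 3 and 4, or 82.1, 70.0 and 139.7 CPM. A single read in EPS replicate 1 allows a level of up to 0.259 CPM (exact Poisson 95% interval, counting error only), so that library could not be told from the control. Taken against a floor of 3 reads per library, at most 0.181 CPM in the control, Cyp1a1 was at least 455-fold, 388-fold and 774-fold higher in EPS replicates 2, 3 and 4. These folds hold for that floor and the measured EPS levels only. In control replicate 4 only 359 genes had 1 to 5 reads, so its 0 reads of Cyp1a1 are less certain. The floor and the Poisson intervals may not hold for that library. The exact Poisson 95% interval for 0 reads reached 0.222 CPM in control replicate 3. In the fit Cyp1a1 was 4.93 higher on the log2 scale (standard error 1.48). With each library left out in turn this ranged from 4.20 without EPS replicate 4 to 6.55 without EPS replicate 1. Because Cyp1a1 had no reads in the control, the value over all libraries depends on the pseudocount and was 7.53 with a pseudocount of 0.1.

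Cyp1b1 (ENSMUSG00000024087.4, chromosome 17 from 79701537 to 79715061) was already expressed in the control, at 174, 100.1 and 118 CPM in replicates 1, 3 and 4. It was at 265 CPM in EPS replicate 1 and at 977, 1135 and 927 CPM in EPS replicates 2, 3 and 4. The groups did not overlap, and the last 3 libraries were 7.10 to 8.69 times the control mean, where EPS replicate 1 was 2.03 times. The log2 fold change was 2.50 (standard error 0.48). Unlike Cyp1a1, Cyp1b1 therefore had a basal level in unstimulated myotubes.

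The 2 feedback genes showed the same low library. Ahrr (ENSMUSG00000021575.16, chromosome 13 from 74211118 to 74292331) was at 0.875, 0.241 and 0.452 CPM in the control, which is 15, 4 and 10 reads. In EPS replicate 1 it was at 1.21 CPM, or 26 reads, and in EPS replicates 2, 3 and 4 it was at 15.1, 15.7 and 15.0 CPM. Those 3 libraries were within 1 CPM of each other and 28.8 to 30.1 times the control mean. The log2 fold change of Ahrr was 2.72 (standard error 0.68), and 3.87 with a pseudocount of 0.1. Tiparp (ENSMUSG00000034640.9, chromosome 3 from 65528410 to 65555518) was at 49.0, 70.7 and 46.9 CPM in the control and at 59.5, 212, 151 and 152 CPM in EPS replicates 1 to 4. EPS replicate 1 lay within the control range, so the groups overlapped, and the other EPS libraries were 2.72 to 3.82 times the control mean. The log2 fold change of Tiparp was 1.24 (standard error 0.39) over all libraries and 1.62 without EPS replicate 1.

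The 2 members shared with NRF2 were raised in every EPS library and differed from one EPS library to the next. Aldh3a1 (ENSMUSG00000019102.10, chromosome 11 from 61207537 to 61218421), an aldehyde dehydrogenase, was at 8.22, 3.91 and 12.3 CPM in control replicates 1, 3 and 4. In EPS replicates 1 to 4 it was at 74.0, 463, 486 and 1314 CPM. Its lowest EPS library was 9.10 times the control mean and its highest 162 times. Nqo1 (ENSMUSG00000003849.8, chromosome 8 from 107388225 to 107403206), a quinone reductase, was at 4.43, 5.60 and 5.92 CPM in the control and at 45.3, 164, 120 and 455 CPM in EPS replicates 1 to 4. These were 8.53, 30.8, 22.5 and 85.6 times the control mean. In both genes EPS replicate 1 was the lowest and EPS replicate 4 the highest of the EPS libraries, and none overlapped the control. The log2 fold changes were 5.52 (standard error 0.82) for Aldh3a1 and 4.51 (standard error 0.62) for Nqo1.

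**Figure D1:**
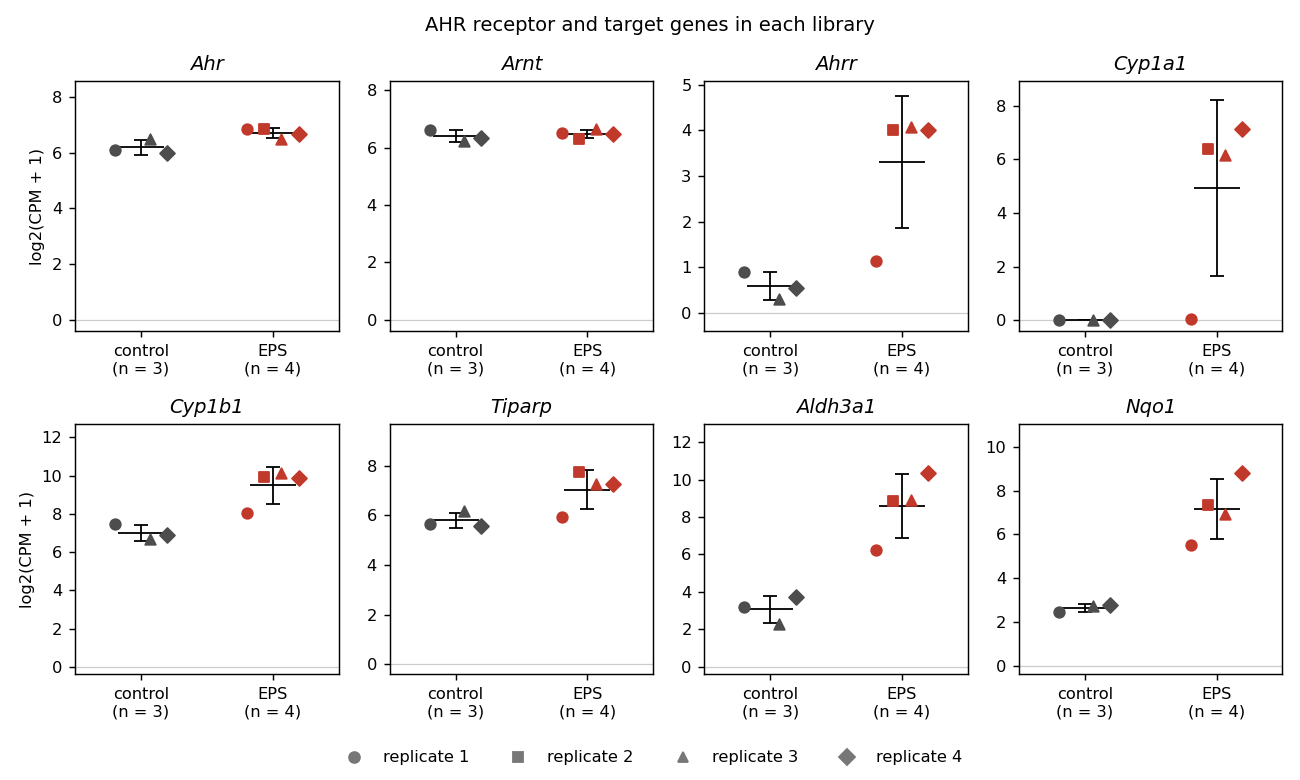
Level of the 8 genes as log2(CPM + 1) on the vertical axis in each control (grey) and EPS (red) library, with a marker shape for each replicate number; the line is the group mean and the bar 1 SD. EPS replicate 1 (circle) lies at 0.0465 CPM in Cyp1a1 and 1.21 CPM in Ahrr, close to the control, while in Aldh3a1 and Nqo1 it is above every control library.

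Counted at an unadjusted P under 0.01 in limma and more than 2-fold, 5 of the 8 members were higher in the EPS group: Cyp1a1, Cyp1b1, Ahrr, Aldh3a1 and Nqo1. None were lower, and Tiparp, Ahr and Arnt did not pass. Of all 19144 genes tested, 185 passed in this direction, or 0.966%, and 84, or 0.439%, passed in the other. Genes higher in the EPS group were 68.8% of all that passed on the deposited scale and 52.8% after median-of-ratios scaling. In 6 members the groups did not overlap and the EPS group was higher, against 7.76% of all genes tested, and in none was it lower, against 2.85%. Among these 6, Cyp1a1 was separated from the control by only 1 read in EPS replicate 1. For Ahrr, the exact Poisson 95% intervals of EPS replicate 1 (0.791 to 1.77 CPM) and control replicate 1 (0.489 to 1.44 CPM) overlapped. P under 0.01 alone held for 4.17% of all genes tested. The members were chosen with this contrast known, and nothing is read from these counts. Without control replicate 3 the count was 3, as Cyp1a1 and Ahrr no longer passed, at log2 fold changes of 4.93 and 2.58. With the replicate number as a block the count was 2, Aldh3a1 and Nqo1. In that fit Cyp1a1, Ahrr and Cyp1b1 did not pass, at 4.45, 2.48 and 2.35. No control library has the number of EPS replicate 2, so these fold changes equal those with that library left out. Without EPS replicate 1 it was 6, with Tiparp added, and Tiparp also passed in edgeR, in DESeq2, with a pseudocount of 0.1 and among genes with a mean of at least 1 CPM. When the 7 libraries were left out in turn, Cyp1a1 passed only without EPS replicate 1.

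**Figure D2:**
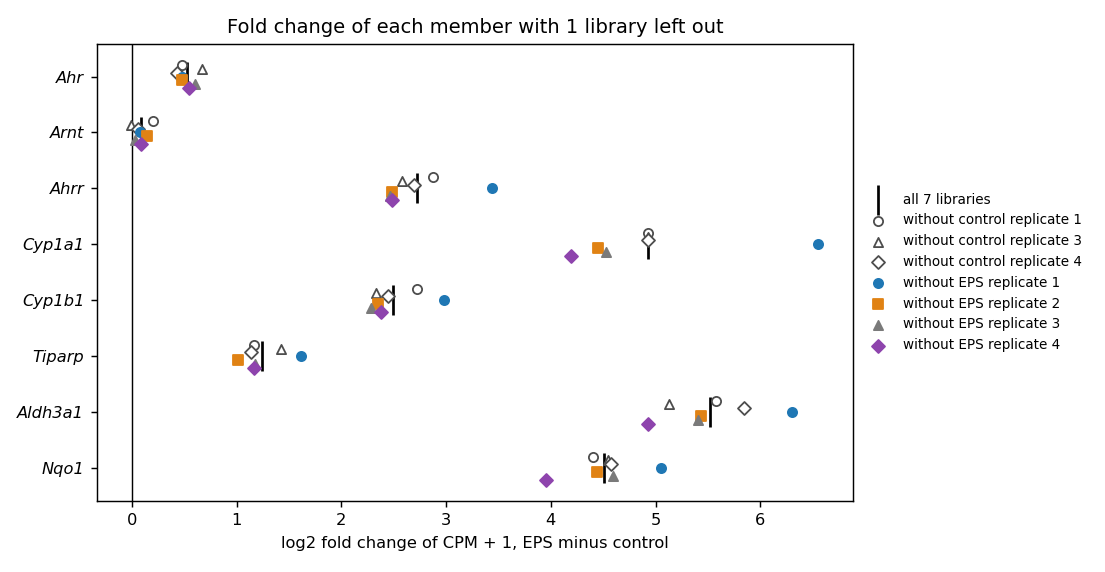
Log2 fold change of CPM + 1 (EPS minus control, horizontal axis) of each of the 8 genes with all 7 libraries (vertical tick) and with each library left out in turn (open symbols, a control library left out; filled symbols, an EPS library left out). Leaving out EPS replicate 1 gave the highest value in Cyp1a1 (6.55), Ahrr (3.44), Cyp1b1 (2.98), Tiparp (1.62), Aldh3a1 (6.31) and Nqo1 (5.05).

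Levels of different genes were compared per kilobase of annotated exon (CPM per kb, GENCODE M21), with means ± SD of 3 control and 4 EPS libraries. In the control the order was Cyp1b1 (22.4 ± 6.60), Tiparp (12.7 ± 3.01), Ahr (11.8 ± 2.17), Arnt (10.5 ± 1.58), Aldh3a1 (4.19 ± 2.15), Nqo1 (3.42 ± 0.505), Ahrr (0.0553 ± 0.0342) and Cyp1a1 (0 reads). Tiparp and Ahr, Ahr and Arnt, and Aldh3a1 and Nqo1 differed by less than the larger of their 2 SDs. In the EPS group the order was Aldh3a1 (301 ± 269), Cyp1b1 (141 ± 65.8), Nqo1 (126 ± 116), Tiparp (33.0 ± 14.5), Cyp1a1 (26.2 ± 20.6), Ahr (16.9 ± 2.03), Arnt (11.1 ± 1.11) and Ahrr (1.24 ± 0.745). Each neighbour from Aldh3a1 down to Ahr differed from the next by less than the larger of the 2 SDs, while Ahr was above Arnt and Arnt above Ahrr by more. These SDs are between libraries, and within each library some neighbours kept their order. Tiparp was above Ahr in each control library, and Nqo1 above Tiparp in each EPS library. The whole order of the means did not hold in every EPS library. In EPS replicate 4, Nqo1, at 293 CPM per kb, was above Cyp1b1, at 159, and Cyp1a1, at 50.1, was above Tiparp, at 34.8. In EPS replicate 1, Cyp1a1 was lowest, at 0.0167 CPM per kb against 0.128 for Ahrr, and Cyp1b1, at 45.4, was above Aldh3a1, at 38.1. The spread among EPS libraries as a coefficient of variation was 12.0% for Ahr and 9.99% for Arnt, and 43.9% to 91.6% for the other 6 members.

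The genes whose pattern over the 7 libraries was most like that of each member were found among 12256 genes with a mean of at least 1 CPM. Likeness was the root mean square difference between log2(CPM + 1) profiles, each centred on its own mean, and it is a description. Ahrr and Cyp1b1 were each other's nearest gene, at a difference of 0.34, where their own profiles vary by 1.65 and 1.41. After Cyp1b1, the genes nearest to Ahrr were Adh7, an alcohol dehydrogenase gene, at 0.51 and Otop1, a proton channel gene, at 0.63. After Ahrr, the genes nearest to Cyp1b1 were Otop1 at 0.44 and F13a1, the coagulation factor XIII A subunit gene, at 0.48. Cyp1a1, whose own profile varies by 3.25, had no gene nearer than Aldh3a1 at 1.21, Nqo1 at 1.46 and Adh7 at 1.52. Tiparp was nearest to Perp, Gpr115 and Ampd3, at 0.30 each.

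Aldh3a1 and Nqo1 lay nearer to glutathione S-transferase genes. Nqo1 was nearest to Gsta4 at 0.32, Gsta1 at 0.46 and Gsta2 at 0.71, and Aldh3a1 to Nqo1 at 0.73, Gsta1 at 0.94 and Gsta4 at 0.96. Gsta4 was at 112, 235, 153 and 807 CPM in EPS replicates 1 to 4, again highest in EPS replicate 4, against 9.49 to 11.9 CPM in the control. Reads of the closely related Gsta genes could have been split between them. Ahr was nearest to Chmp2a, BC052040 and 0610037L13Rik, at 0.07 to 0.08, and Arnt to Wapal, BC057079 and Pik3ca, at 0.05 each. The profiles of Ahr and Arnt themselves varied by 0.32 and 0.15, less than those of the other members. Chmp2a and BC052040 were, like Ahr, higher in every EPS library than in any control library, while 0610037L13Rik overlapped between the groups.

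To see how often a single EPS library was left behind, genes were counted in which 3 EPS libraries were each at least 2-fold above the highest control library and the remaining EPS library was at most 1/2 of the lowest of those 3. This count was set after the values had been seen and is given without a test. Of the 12256 genes, 17 had this pattern with EPS replicate 1 as the low library, and 6 of the 17 were members: Cyp1a1, Cyp1b1, Ahrr, Tiparp, Aldh3a1 and Nqo1. With EPS replicates 2, 3 or 4 as the low library there were 2, 1 and 3 genes, none of them members. In Aldh3a1 and Nqo1 the low library was still more than 8 times the control mean.

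The other genes of the pathway were taken from 7 lists with 78 genes in the deposited tables, 77 of them with reads. Of these, 7 rose and 0 fell at both thresholds, against 0.966% and 0.439% of all genes tested. Slc7a5, an AHR-responsive gene, fell past both thresholds without control replicate 3 and without EPS replicate 3, at -1.03 on the log2 scale in each fit. An adjusted p under 0.05 in limma was reached by 2 of them, Gsta1 and Hmox1, against 27, or 0.141%, of all genes tested. Over all genes this number was 0 without EPS replicate 3 and with the replicate number as a block. It was 4 to 27 on leaving out each other library, 290 in edgeR and 456 in DESeq2. For Hmox1 the adjusted p under 0.05 was lost with quantile normalization (limma, adjusted p = 0.0501) and on leaving out any library other than EPS replicate 1 (limma, adjusted p of 0.0914 to 0.122). For Gsta1 it was lost without EPS replicate 3 (limma, adjusted p = 0.0685). For both genes it was also lost with the replicate number as a block (limma, adjusted p = 0.510). The 7 were Gsta1 and Ugt1a6a among the other AHR-responsive genes and Hmox1, Gclm, Srxn1, Txnrd1 and Osgin1 among the NRF2 genes. All 7 were higher in every EPS library than in any control library, as were 7.76% of all genes tested. The 7 were selected by their difference in these same libraries, so nothing is read from this. The lists were drawn up with earlier results of these data known.

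Among 10 other AHR-responsive genes, 2 rose, 0 fell and 8 did not pass, with a median log2 fold change of 0.32 against 0.04 over all genes tested. Ugt1a6a, which encodes a UDP-glucuronosyltransferase and is another gene of the classical battery, was at 1.92, 2.41 and 3.80 CPM in the control. It was at 5.49 CPM in EPS replicate 1 and at 19.1, 12.5 and 12.4 CPM in EPS replicates 2, 3 and 4. EPS replicate 1 was 2.03 times the control mean, the same as for Cyp1b1. The log2 fold change of Ugt1a6a was 1.77 (standard error 0.39, adjusted p = 0.123 from limma). Reads of Ugt1a6a and Ugt1a6b, which share exons, could have been split between them.

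Gsta1, a glutathione S-transferase gene, rose. Its mean was 0.309 CPM with an SD of 0.124 in the control and 29.9 CPM with an SD of 14.4 in the EPS group. The difference was 4.43 on the log2 scale (standard error 0.40, limma, adjusted p = 0.00909). It was 6.09 with a pseudocount of 0.1, 6.41 in edgeR and 6.43 in DESeq2. In EPS replicate 1, Gsta1 was at 13.4 CPM, or 43.3 times the control mean. Cyp1a2, the close relative of Cyp1a1 that is known from liver, was at no more than 0.106 CPM in any library. Slc7a5, the large neutral amino acid transporter gene, named after its values were seen, passed P under 0.01 but not the fold threshold, at -0.88 on the log2 scale (standard error 0.22, limma, adjusted p = 0.171).

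Of the 14 genes of the NRF2 list, 5 rose, 0 fell and 9 did not pass, with a median log2 fold change of 0.74. Hmox1, which encodes heme oxygenase 1, was at 144, 386, 218 and 447 CPM in EPS replicates 1 to 4 and at 35.1 to 49.3 CPM in the control (log2 fold change 2.71, standard error 0.37, adjusted p = 0.0443 from limma). Gclm, a subunit of the enzyme that starts glutathione synthesis, was at 48.5, 76.0, 47.6 and 145 CPM in EPS replicates 1 to 4 and at 16.4 to 21.1 CPM in the control (log2 fold change 1.93, standard error 0.36, adjusted p = 0.0941 from limma). Txnrd1, the cytosolic thioredoxin reductase gene, was at 291, 396, 307 and 591 CPM in the EPS libraries against 108 to 143 CPM (log2 fold change 1.55, standard error 0.26, adjusted p = 0.0712 from limma). In Gclm and Txnrd1, EPS replicate 1 was close to EPS replicate 3, and in Hmox1 and Gsta1 it was lower.

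Srxn1, the sulfiredoxin gene, was at 59.3, 62.0, 57.5 and 189 CPM in EPS replicates 1 to 4 and at 20.5 to 33.8 CPM in the control (log2 fold change 1.55, standard error 0.41, adjusted p = 0.185 from limma). Osgin1, an oxidative stress gene that was named after its values were seen, differed by 1.16 on the log2 scale, with a standard error of 0.30 and an adjusted p of 0.180 in limma. Without control replicate 1 the log2 fold changes of Srxn1 and Osgin1 were 1.38 and 0.97, without control replicate 3 they were 1.56 and 1.16, and neither gene passed in either fit, which left 3 genes of the list. Osgin1 also did not pass without EPS replicate 2, at 1.04, or without EPS replicate 4, at 1.00. Nfe2l2, which encodes NRF2 itself, overlapped between the groups, at 81.5 to 178 CPM in the control and 104 to 208 CPM in the EPS group. Keap1, its inhibitor, overlapped as well, at 18.4 to 31.7 CPM and 24.6 to 38.6 CPM.

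**Figure D3:**
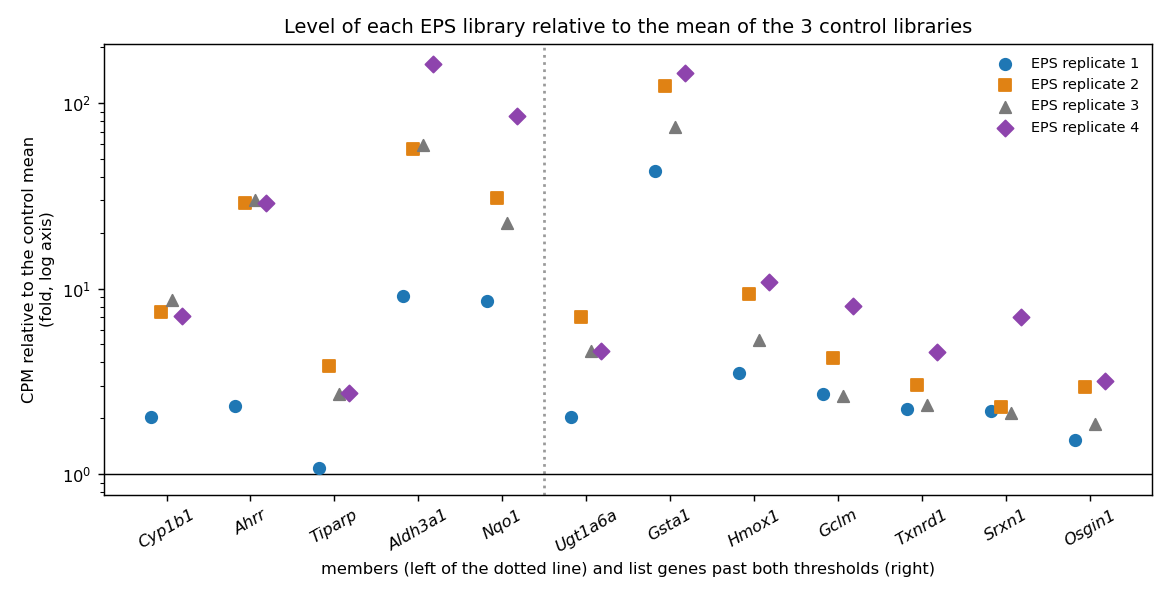
CPM of each EPS library relative to the mean of the 3 control libraries (fold, log axis) for 5 members and, right of the dotted line, the 7 list genes that rose; the marker and colour give the EPS replicate, and Cyp1a1 is left out because its control libraries had no reads. EPS replicate 1 (circle) is at 1.07 to 2.32 times the control mean in Cyp1b1, Ahrr and Tiparp and at 8.53 and 9.10 times in Nqo1 and Aldh3a1.

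None of the genes of the other 5 lists passed both thresholds. The 11 genes of the AHR complex and its coregulators had a median log2 fold change of 0.15. The values were 0.71 for Hsp90aa1 (standard error 0.25, adjusted p = 0.307 from limma) and 0.40 for Hsp90ab1 (standard error 0.38, adjusted p = 0.737 from limma), the HSP90 genes. Of the 11 genes of tryptophan and kynurenine metabolism, which makes known AHR ligands, Kynu had no reads and 10 were tested. Ido1, Ido2, Il4i1, Kmo, Aadat and Haao were under 0.25 CPM in every library. The largest differences of that list were 0.49 in Afmid and 0.23 in Ccbl2. Tdo2, which encodes a liver enzyme that starts this pathway, was at most 0.678 CPM.

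The 12 genes of P450 electron supply and heme synthesis had a median log2 fold change of 0.34. Cyb5, the cytochrome b5 gene now named Cyb5a, was at 0.92 (standard error 0.39, adjusted p = 0.406 from limma) and Cpox, a heme synthesis gene, at 0.77 (standard error 0.25, adjusted p = 0.277 from limma). Cpox was at 38.4 CPM in EPS replicate 1 and at 69.8 to 82.4 CPM in the other EPS libraries, against 33.2 to 42.3 CPM in the control. Without EPS replicate 1 its log2 fold change was 1.00 and it passed both thresholds. The 13 other basic helix-loop-helix PAS genes had a median of 0.02, with Sim2 at 0.53 and Npas1 at -0.28. The 10 enzyme relatives of the members had a median of 0.26, with Aldh2 at 0.73 and Nqo2 at 0.54. Aldh3a2, the closest relative of Aldh3a1 on that list, named after its values were seen, was at 0.25.

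**Figure D4:**
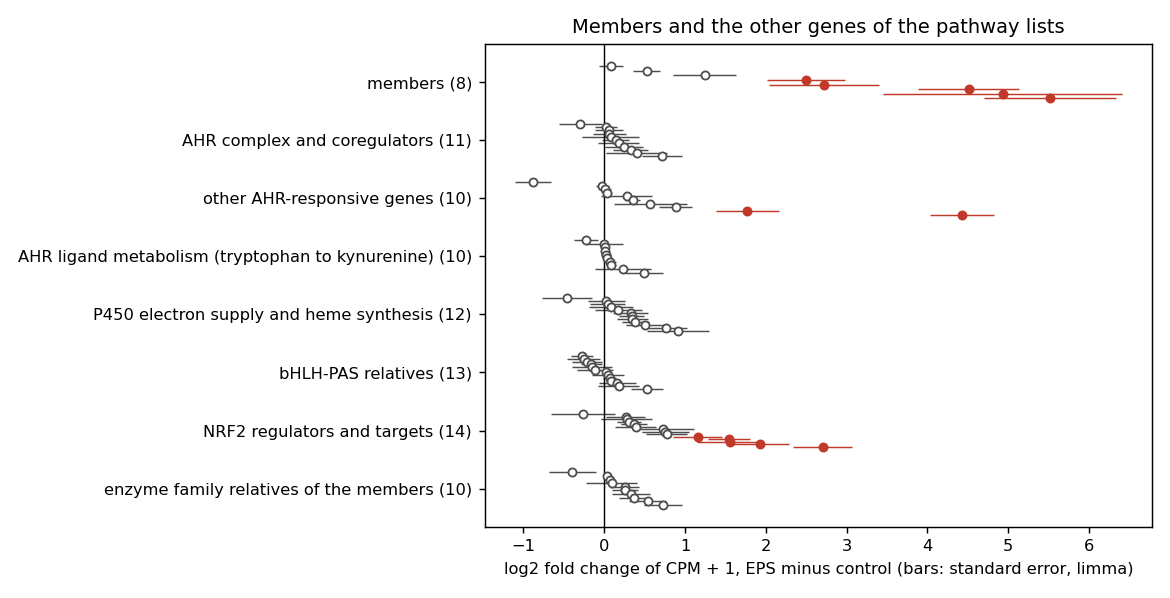
Log2 fold change of CPM + 1 (EPS minus control, horizontal axis) of the members and of each gene of the 7 pathway lists, with the number of genes tested in brackets; filled red points passed P under 0.01 and 2-fold, open points did not, and bars are standard errors from limma. Red points occur among the members (5), the other AHR-responsive genes (2) and the NRF2 list (5).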

How the data were processed

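RNA-seq of 3 control and 4 EPS libraries was analysed. Per the labels and the methods of the study, the authors selected poly(A) RNA, made directional libraries, sequenced paired-end reads of 100 bp and used STAR 2.5.4b for mapping, with GRCm38 as the reference. The read counter, annotation and strand setting are not given in the sources used here, so genes that overlap others (Ahr with Gm48236, Tiparp with 4931440P22Rik, both on opposite strands, and Arnt with Gm42672) are uncertain to that extent. The authors deposited CPM per gene symbol. Whole reads could be recovered from 100% of the values above 0 (tolerance 0.01 reads).

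Log2(CPM + 1) of the 19144 genes above 0 in at least 1 library was tested with limma 3.58.1 in R 4.3.3 (mean-variance trend, no covariate), with Benjamini-Hochberg adjustment over all of them. Log2 fold changes are on this scale and understate the change of low genes. Thresholds were an unadjusted two-sided P under 0.01 and more than 2-fold. Alternatives were a pseudocount of 0.1, a mean of at least 1 CPM, quantile normalization, median-of-ratios scaling, edgeR 4.0.16 and DESeq2 1.42.0 on the recovered reads, the replicate number as a block, P under 0.001 and leaving out each library. Intervals and the floor of 3 reads cover counting error only. The tests were tried on simulated data, and no result of that trial is given or used here. The members and lists were chosen with earlier results of these data known. Named genes are the members, of each list at most 4 genes past both thresholds (or 1 or 2 with the largest change), and the 3 genes most like each member. Other genes of the lists and markers, such as Nfe2l2, Keap1, Cyp1a2, Tdo2, Osgin1 and those under 0.25 CPM, were named after their values were seen. Older symbols were matched through RefSeq.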

Additional observations from a re-analysis of the deposited data

Results flagged for a closer look

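The 4 EPS libraries of the 8 members and of 17 list genes named with their values were checked for a library far from the others. This was done on the CPM and on the log2(CPM + 1) scale. On each scale chance flags about 1 in 20 groups of independent, normally distributed values. A gene checked on both scales is flagged more often, and these genes share the same libraries. Ahrr stood out on both scales, with EPS replicate 1 at 1.21 CPM and the other EPS libraries at 15.0 to 15.7 CPM. Cyp1a1 stood out on the log2 scale, with EPS replicate 1 at 0.0465 CPM. Cyp1b1 also stood out on the log2 scale, with EPS replicate 1 at 265 CPM. Srxn1 stood out on both scales in the other direction, with EPS replicate 4 at 189 CPM and the other EPS libraries at 57.5 to 62.0 CPM.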

How the results depend on the processing

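With the 7 libraries left out in turn, 209 to 325 genes passed both thresholds (269 with all), of which 3 to 6 were members (5 with all) and 5 to 9 were list genes (7 with all). The number over all genes moved to 601 with a pseudocount of 0.1, 629 in edgeR and 585 in DESeq2. At P under 0.001 it was 106, with 3 members and 4 list genes. With the replicate number as a block it was 161, with 2 members, Aldh3a1 and Nqo1, and 3 NRF2 genes; 5 list genes passed in that fit, in which the adjusted p from limma was 0.510 for both Gsta1 and Hmox1. The block fit takes no fold change from EPS replicate 2, as no control library has its number. Whether same-numbered libraries were cultured together is not in the labels. Their deviations from the group means correlated at 0.25, -0.45 and 0.07 across 12256 genes for replicates 1, 3 and 4. In groups this small, centred on their own means, such values cannot decide whether the libraries are paired. Arnt changed sign, to -0.028 with median-of-ratios scaling, -0.017 in edgeR, -0.030 in DESeq2 and -0.0045 without control replicate 3, in a range of -0.0045 to 0.20 over the libraries left out. Ccbl2 changed sign without control replicate 4, in a range of -0.13 to 0.53. The other 7 members and 16 list genes refitted kept their direction in each alternative run for them; Npas1 could not be fitted at a mean of at least 1 CPM, and the fold changes of the other list genes named were not followed through all alternatives. Median-of-ratios scaling moved the median over genes averaging at least 1 CPM from 0.10 to -0.0048 on the log2 scale, and quantile normalization to 0.0052, after which 51.6% of the genes that passed were higher in the EPS group. Cyp1a1 also did not pass with quantile normalization, at 4.90. The cause of these changes was not tested.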

Other observations

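The 11 genes other than members that were low in EPS replicate 1 and at least 2-fold above the highest control in the other EPS libraries were Adh7, Cxcl5, Enpp2, F13a1, Foxq1, Gpr115, Hlf, Otop1, Perp, Tsku and Ugt1a6a. They were found from their values and are given without a test. Adh7, an alcohol dehydrogenase gene, was at 36.8 CPM in EPS replicate 1 and at 182 to 253 CPM in the others, against 8.72 to 16.0 CPM in the control. Cxcl5, a chemokine gene, was at 1.30 CPM in EPS replicate 1, below the lowest control library at 1.32 CPM, and at 25.8, 6.21 and 9.72 CPM in EPS replicates 2, 3 and 4. Foxq1, a forkhead transcription factor gene, was at 9.54 CPM in EPS replicate 1 and at 20.0 to 32.3 CPM in the others, against 4.08 to 9.67 CPM in the control. Tsku, a secreted proteoglycan gene, was at 18.2 CPM in EPS replicate 1, equal to control replicate 4 at this precision, and at 39.2 to 47.0 CPM in the others. Hlf, a transcription factor gene of the PAR bZIP family, was at 2.89 CPM in that library, while the others reached 6.53 to 8.55 CPM, against 0.421 to 1.67 CPM in the control.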
